A study of Homo sapiens with 12 samples.

Results

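The transcripts described here encode the 8 m6A reader proteins of the YTH and IGF2BP families (YTHDF1, YTHDF2, YTHDF3, YTHDC1, YTHDC2, IGF2BP1, IGF2BP2 and IGF2BP3). They were chosen by gene name from the 10830 gene names that carried a peak in at least 1 of 6 RNA immunoprecipitation sequencing (RIP-seq) peak lists. HepG2 cells, an established human liver cancer line, stably expressed 3xFlag-tagged METTL16, eIF3a or eIF3b after infection with the tagged constructs, were UV cross-linked, and gave 2 RIP replicates and 2 input replicates per protein, 12 samples in all. Every list therefore comes from cells that carry an added copy of the protein pulled down. METTL16 and eIF3b were precipitated with a Flag antibody and eIF3a, per the labels, with an eIF3a antibody, although the name of each deposited eIF3a list also says Flag; protein and antibody cannot be told apart for eIF3a. None of the 12 samples is labelled as a control antibody (IgG) pulldown. Each list held the regions that the authors' peak caller found enriched over input, with a p-value and a fold enrichment per peak, and no read counts, so the depth behind each peak is unknown.

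m6A is the most common internal modification of mRNA, and reader proteins are the factors that recognise it. The YTH domain holds the methylated base in a pocket. The YTHDF proteins act in the cytoplasm, YTHDC1 in the nucleus in splicing and export, and YTHDC2 is a helicase known mainly from the germline. The IGF2BP proteins bind RNA through KH domains, stabilise their target mRNAs and are known as oncofetal proteins in liver cancer. METTL16 is a methyltransferase of U6 RNA and of MAT2A mRNA, and eIF3a and eIF3b are subunits of the translation initiation factor eIF3. The values below describe the mRNAs that encode the readers, not binding by the readers.

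The sequences that the peak positions turn on are shown first, on GRCh38, 5′ to 3′ on the transcript strand. The stop codon windows of the IGF2BP genes are shown because peaks lay over them, with the stop codon in capitals.
IGF2BP1, chr17:49049430-49049459, plus strand: gcacggaggaagTGAccagcccctccctgt
IGF2BP2, chr3:185645516-185645545, minus strand: cagcgcagcaagTGAggctcccacaggcac
IGF2BP3, chr7:23312347-23312376, minus strand: tcaagacggaagTAAaggctcaggaaacag
The stop codon lay under a peak in 6 lists for IGF2BP1, in 5 for IGF2BP2 and in 3 for IGF2BP3. Among the YTH genes, that of YTHDF1 lay under a peak in eIF3a replicate 1 and that of YTHDF2 in eIF3a replicate 2.

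The sites GGAC, the core of the usual m6A site, that lay under a peak in all 6 lists are shown with the motif in capitals. They were found in IGF2BP1 and IGF2BP2 and in no other of the 8 genes. No other of these genes had a base under a peak in all 6 lists, so no motif could have been found there.
IGF2BP1, 33 bases before the stop codon, chr17:49049401-49049420, plus strand: atcagaagGGACagagtaac
IGF2BP1, 31 bases past the first stop codon base, chr17:49049465-49049484, plus strand: cgagtccaGGACaacaacgg
IGF2BP1, 97 bases past it, chr17:49049531-49049550, plus strand: ggaatccgGGACacctgggc
IGF2BP2, 141 bases past it, chr3:185645380-185645400, minus strand: gcggccagGGACTctgccgag
IGF2BP2, 664 bases past it, chr3:185644858-185644877, minus strand: cgtcggaaGGACactcacgg
The site at 141 bases in IGF2BP2 was also the single GGACT under a peak in all 6 lists.

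For 3 of the YTH genes, the middle of the interval covered by the most lists is shown, with any GGAC in capitals.
YTHDF1, exon 4, coding, 5 lists, chr20:63203353-63203382, minus strand: catggttggcctgaagattggGGACgtcag
YTHDF2, exon 4, coding, 4 lists, chr1:28743748-28743777, plus strand: gtcgttttgatgtcaggtggatttttgtga
YTHDC1, exon 4, coding, 5 lists, chr4:68337318-68337347, minus strand: gtggttcttctgatgagcaagggaacaaca

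The list of eIF3a replicate 2 stood apart on these genes. In it, the median width of the reader peaks was 343.5 bases, against 150 to 240 bases in the other lists, and 22.2% of the reader exon bases lay under peaks, against 4.63% to 13.9%. IGF2BP1 held 5784 of these 12055 bases. Against eIF3a replicate 1, more of YTHDF1, YTHDF2, YTHDF3, IGF2BP1 and IGF2BP3 was covered and less of YTHDC1, YTHDC2 and IGF2BP2. Over all genes the median peak width of this list was 210 bases, against 180 to 210 in the others.

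Reader transcripts with a peak in every list were YTHDF1, YTHDF3, YTHDC1, IGF2BP1, IGF2BP2 and IGF2BP3, or 6 of 8, against 25.2% of all genes with a peak in any list. YTHDF2 had a peak in the 4 eIF3 lists and in neither METTL16 list, a pattern held by 446 genes (4.12%). YTHDC2 had 1 peak, in eIF3a replicate 1, the list with the most peaks. With a transcript called bound when both replicates had a peak, METTL16 bound 6 of the 8 transcripts (42.6% of all genes), eIF3a 7 (42.4%) and eIF3b 7 (60.0%). Per list, the count was 6 in METTL16 replicate 1 (53.8% of all genes) and 6 in replicate 2 (58.5%), 8 in eIF3a replicate 1 (75.4%) and 7 in replicate 2 (48.3%), and 7 in eIF3b replicate 1 (74.5%) and 7 in replicate 2 (69.9%). These counts rested largely on peaks of modest enrichment. With peaks of at least 4-fold alone, METTL16 bound 1 of the 8 (17.9% of all genes), eIF3a 0 (14.3%) and eIF3b 1 (24.8%), and 0 had a peak in all 6 lists (6.25%). Among the 5000 peaks of smallest p in each list, METTL16 bound 2 (20.1%), eIF3a 3 (15.9%) and eIF3b 4 (21.2%), with 2 in all 6 lists (8.57%). The share of all genes fell under both limits as well. All genes, here and below, means the 10830 names with a peak in any list. Of the 20020 annotated protein-coding genes, METTL16 bound 22.9%, eIF3a 22.8% and eIF3b 32.2%, and 13.6% had a peak in all 6 lists.

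**Figure D1:**
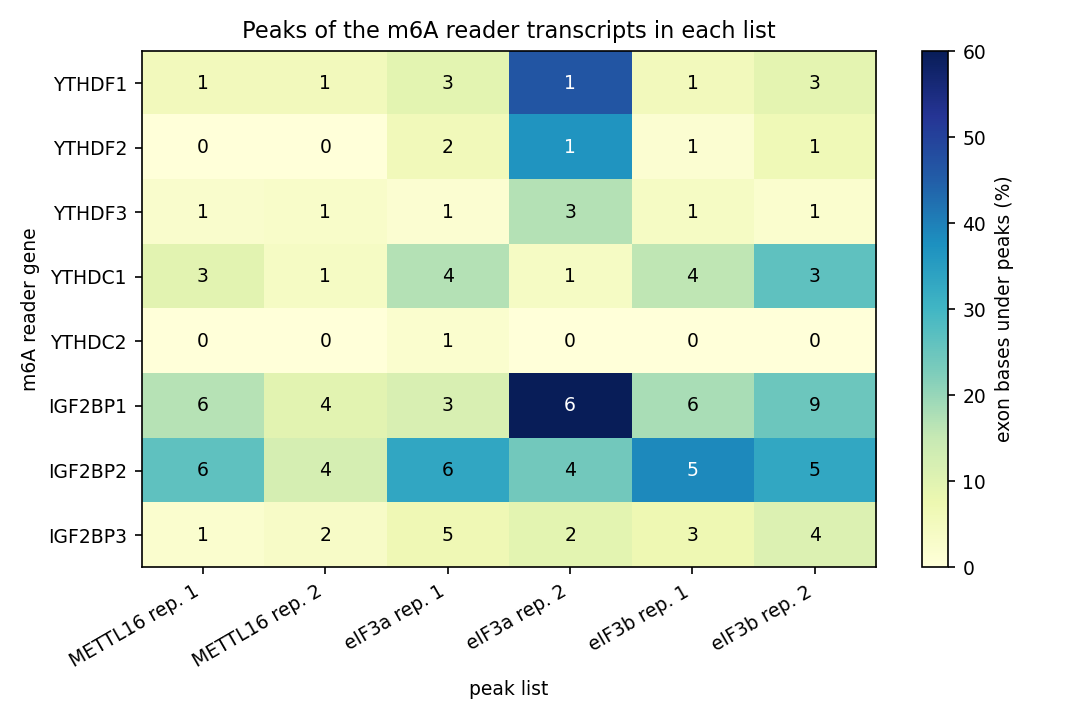
Percent of the exon bases of each reader gene (rows) that lay under peaks in each of the 6 lists (columns), as colour, with the number of peaks printed in each cell. YTHDF2 has 0 peaks in both METTL16 lists, YTHDC2 has 1 peak in a single list, and IGF2BP1 in eIF3a replicate 2 has the darkest cell at 60.1%.

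The 8 genes held 121 of the 101848 peaks. They numbered 18 and 13 in the METTL16 lists, 25 and 18 in the eIF3a lists and 21 and 26 in the eIF3b lists. IGF2BP1 had 34 peaks over the 6 lists and IGF2BP2 had 30, while YTHDF2 had 5. Ranked by the p of its strongest peak among the genes of each list, IGF2BP1 had a median percentile of 95.4 and IGF2BP2 of 95.3, where a higher percentile means a smaller p. This is not a rank by fold: these strongest peaks were 2.02- to 5.26-fold in IGF2BP1 and 2.58- to 3.49-fold in IGF2BP2. By canonical transcript length, IGF2BP1 stood at percentile 93.3 of the genes with peaks and IGF2BP2 at 62.4. The part of length in the rank was not tested. YTHDC1 followed at 86.5, YTHDF1 at 54.3, IGF2BP3 at 53.6, YTHDF3 at 29.6 and YTHDF2, over its 4 lists, at 17.2. The 3 genes whose percentiles over the 6 lists were nearest to those of IGF2BP1 were PGPEP1, SPEN and BPTF, at Euclidean distances of 4.22, 5.74 and 6.81 percentile points.

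IGF2BP1, on chromosome 17, has 15 exons and a 3′ UTR of 6701 bases. A peak lay over its stop codon in each list, with fold enrichments of 3.60 and 2.02 in the METTL16 lists, 2.55 and 2.05 in the eIF3a lists and 3.75 and 3.29 in the eIF3b lists. The stretch common to all 6 lists in exon 15 ran from chr17:49049352-49049560, from codon 548 to 118 bases past the first stop codon base. A second common stretch, chr17:49054648-49054828, lay far out in the 3′ UTR, 5206 to 5386 bases past the stop. In the 5′ UTR of exon 1 a peak was present in 5 lists and absent from eIF3a replicate 1, at 5.45- and 2.02-fold in the METTL16 lists, 1.60-fold in eIF3a replicate 2 and 6.27- and 2.75-fold in the eIF3b lists. The highest values came from replicate 1 of METTL16 and of eIF3b, and the second replicates of all 3 proteins lay between 1.60 and 2.75.

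IGF2BP2, on chromosome 3, has 16 exons, and 418 of its bases lay under a peak in all 6 lists, the most of the 8 genes. These were 2 stretches of the 3′ UTR in exon 16, chr3:185645227-185645465 at 68 to 306 bases past the stop and chr3:185644721-185644899 at 634 to 812 bases. The enrichment of the farther peak was 3.81 and 2.13 in the METTL16 lists, 3.44 and 3.29 in the eIF3a lists and 4.32 and 3.30 in the eIF3b lists. The METTL16 values spanned both eIF3a values and one of the eIF3b values, and the eIF3a replicates were the closest pair. A peak over the start codon in exon 1 was found in 5 lists and not in eIF3a replicate 2, and a coding peak reaching exon 7 in 5 lists and not in METTL16 replicate 2.

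IGF2BP3, on chromosome 7, had a peak in every list, yet no base of it was covered in 5 or more lists. METTL16 replicate 1 and both eIF3b lists covered its stop codon, at 1.99-, 2.28- and 3.31-fold. In METTL16 replicate 2 the peaks lay in exons 3 to 5 and 11 to 13, and eIF3a replicate 1 had 3 short peaks in the 3′ UTR. Presence in all 6 lists thus meant a shared position for IGF2BP1 and IGF2BP2 and did not for IGF2BP3.

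**Figure D2:**
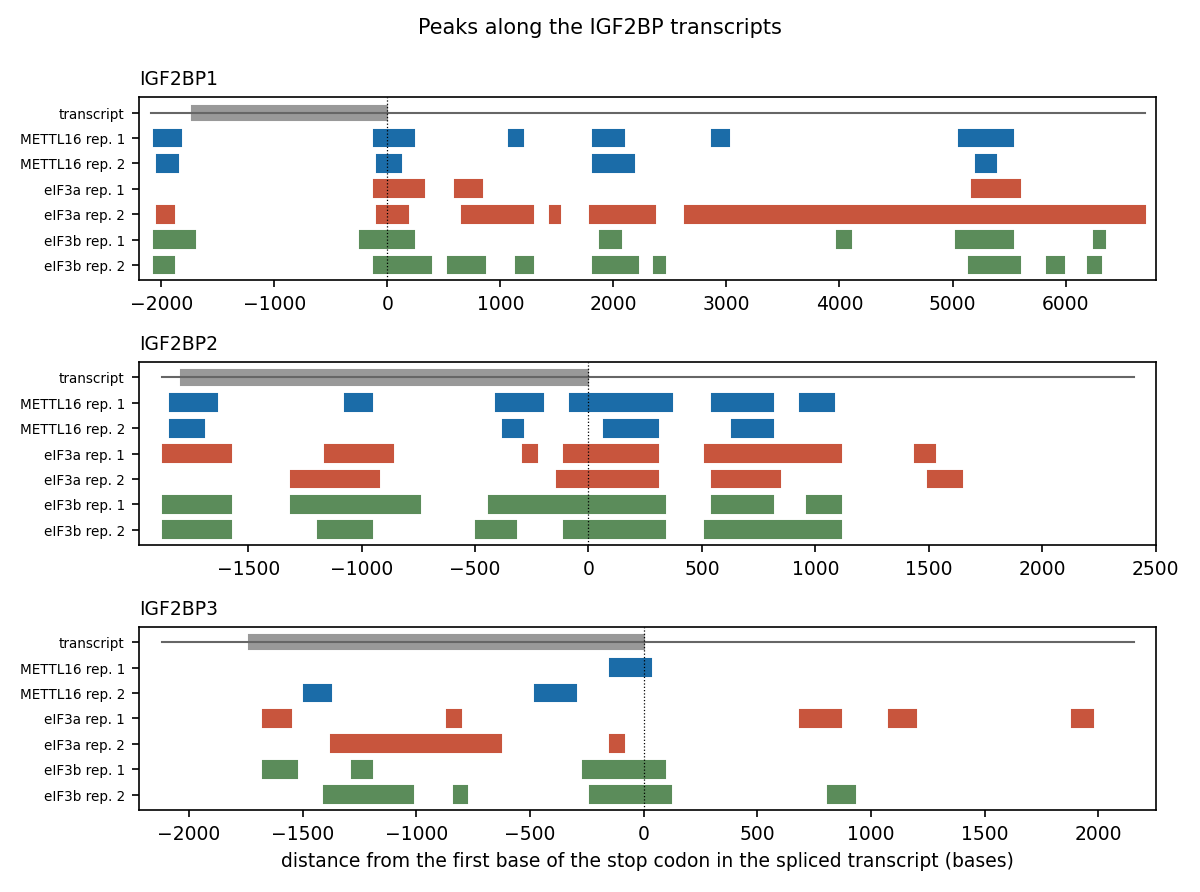
Peaks of each list (coloured bars, 1 row per list) along the spliced canonical transcripts of IGF2BP1, IGF2BP2 and IGF2BP3, in bases from the first base of the stop codon, with the coding region as the grey box. Bars line up near 0 in all 6 rows of IGF2BP1, while those of IGF2BP3 are scattered; a single bar of 4072 bases fills the end of IGF2BP1 in eIF3a replicate 2.

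YTHDC1, on chromosome 4, had its strongest peaks in the coding region of exons 2 to 6. The peak that held this region reached 6.95-fold in METTL16 replicate 1, 6.75 and 2.92 in the eIF3a lists and 13.8 and 8.61 in the eIF3b lists, and was absent from METTL16 replicate 2. The value of 13.8 was the highest of all 121 peaks. A peak in exons 16 and 17, near the end of the coding region, was present in 5 lists and not in eIF3a replicate 2, and a 5′ UTR peak in exon 1 in 4 lists. No peak lay in its 3′ UTR of 3712 bases in any list.

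Both ACAGAGA sites of YTHDC1 that were under peaks are shown because this motif, in capitals, is the core of the METTL16 site in U6 RNA.
YTHDC1, 239 bases before the stop codon, chr4:68316316-68316338, minus strand: agcaagatACAGAGAtaaacgag
YTHDC1, 95 bases before it, chr4:68314182-68314204, minus strand: cagacgagACAGAGAgcgagata
The first lay under a peak in 4 lists (METTL16 replicate 2, eIF3a replicate 1 and both eIF3b lists) and the other in 3 (METTL16 replicate 1 and both eIF3b lists). Both thus lay under eIF3b peaks as well as a METTL16 peak.

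The YTHDF transcripts share an arrangement in which exon 4 holds most of the coding region. In eIF3a replicate 2, YTHDF1 had a single peak of 1493 bases over codons 52 to 549 at 3.54-fold, and YTHDF2 a single peak of 1369 bases over codons 141 to 579 at 3.95-fold. The other lists had short peaks in this exon of YTHDF1 and YTHDF2, except that YTHDF2 had none in the METTL16 lists. For YTHDF1, codons 171 to 231 were covered in METTL16 replicate 1 at 1.98-fold and in eIF3b replicate 1 at 2.14-fold, with the same edges, and METTL16 replicate 2 had its peak at codons 370 to 430 instead, at 1.86-fold. Both METTL16 replicates thus counted YTHDF1 as bound without sharing a base. The caller scans exons in fixed steps, so equal edges do not mean base resolution.

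YTHDF2 was covered in its coding region at 1.44- and 3.95-fold in the eIF3a lists and at 1.35- and 1.71-fold in the eIF3b lists, with 60 bases common to all 4. YTHDF3 differed in position. Its single peak lay in the 5′ UTR of exon 1 in 5 lists, at 9.27 and 8.34-fold in the METTL16 lists, 3.14 in eIF3a replicate 1 and 6.18 and 2.37 in the eIF3b lists. Both METTL16 fold values were above the others. The log10 p was -4.14 and -6.57 in the METTL16 lists, -3.10 in eIF3a replicate 1 and -8.55 and -2.02 in the eIF3b lists. By p, YTHDF3 ranked 7570 of 7570 genes in eIF3b replicate 2. In eIF3a replicate 2 this peak was absent and 3 coding peaks with 1046 bases took its place, the strongest at 3.07-fold. The peak of YTHDC2 covered 210 bases of the 3′ UTR in exon 30 at 5.21-fold.

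**Figure D3:**
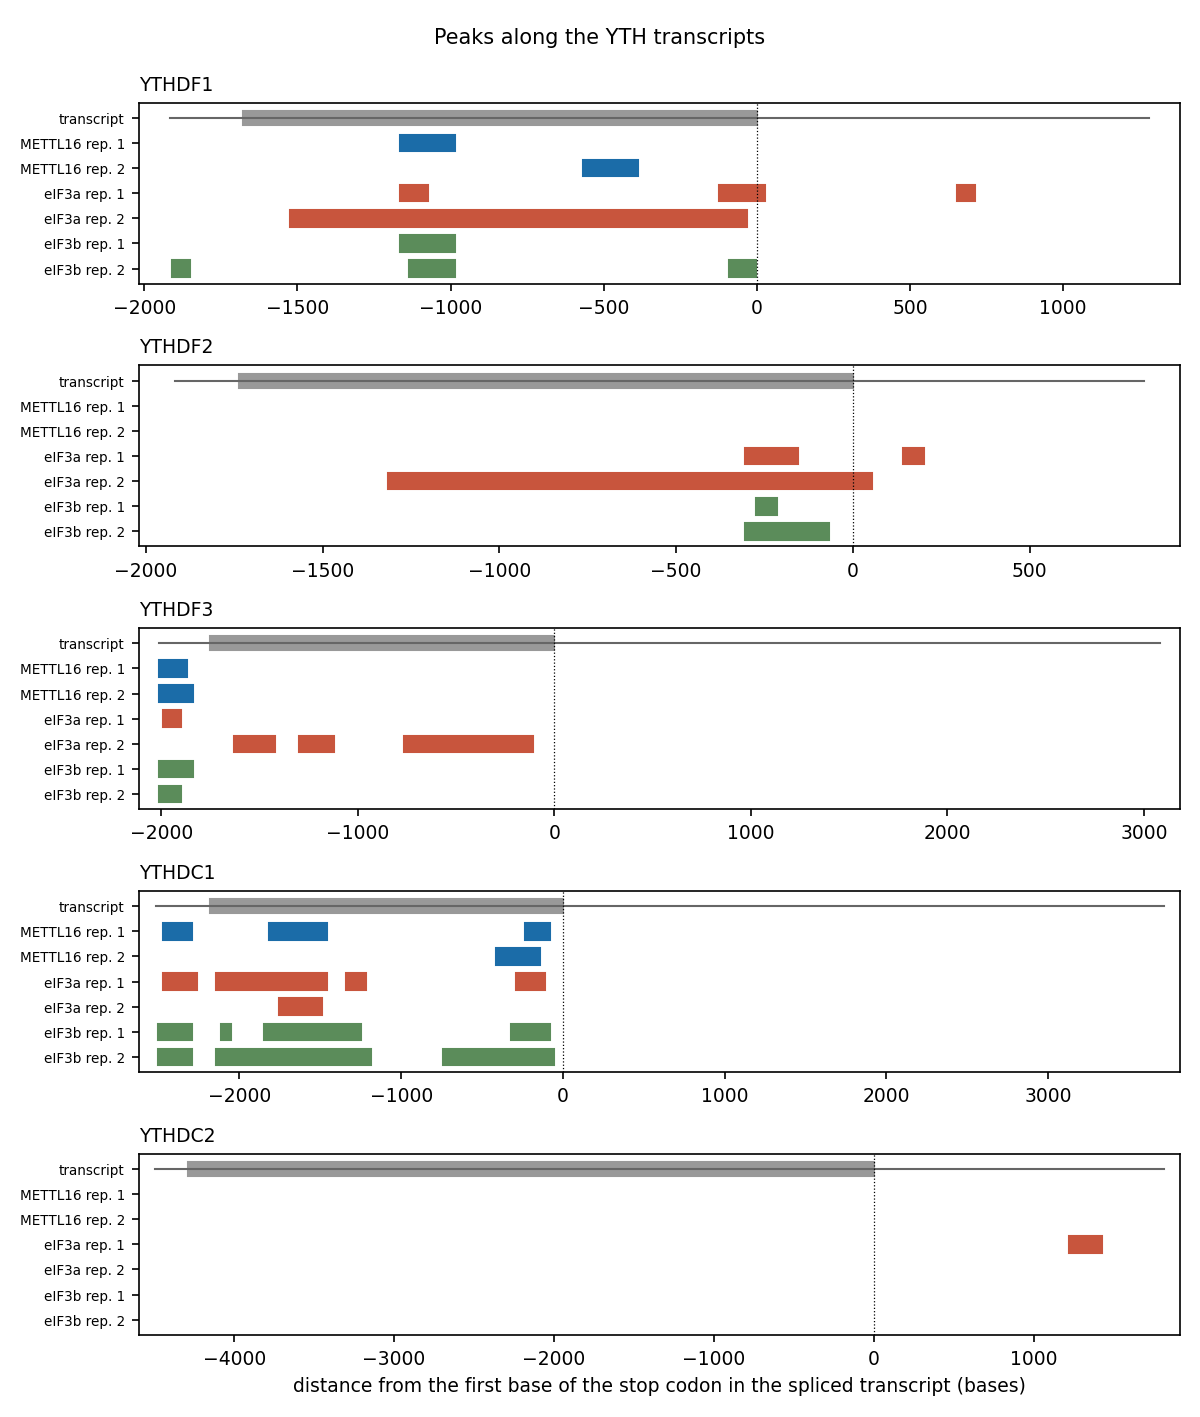
Peaks of each list (coloured bars, 1 row per list) along the spliced canonical transcripts of the 5 YTH genes, in bases from the first base of the stop codon, with the coding region as the grey box. eIF3a replicate 2 has the long bars of 1493 bases in YTHDF1 and 1369 bases in YTHDF2, and YTHDF3 has a bar at its 5′ end in the other 5 lists.

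The fold enrichment of reader peaks was modest. Their median was 2.40 and 2.02 in the METTL16 lists, 2.07 and 1.96 in the eIF3a lists and 2.37 and 2.27 in the eIF3b lists, below the median of all peaks (2.73 to 3.40) in each of the 6 lists. Of the 121 peaks, 4, 1, 2, 1, 5 and 1 reached 4-fold in the same order of lists, where 30.3% to 40.9% of all peaks did.

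**Figure D4:**
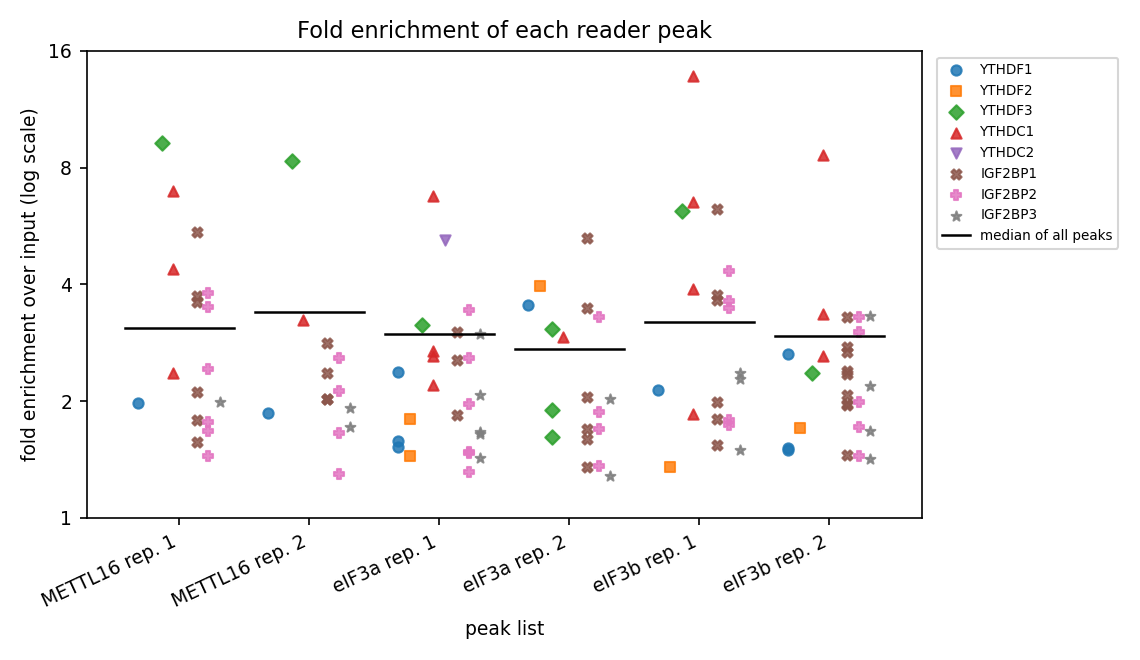
Fold enrichment over input of each reader peak (symbols by gene, log scale) in the 6 lists, with the median of all peaks of the list as a black line. Most symbols lie under the line, and YTHDC1 in eIF3b replicate 1 is the highest at 13.8.

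How much of the reader exons each protein covered was compared over the 2 lists per protein. METTL16 peaks covered 7.76% and 4.63% of the 54432 exon bases (6.20% ± 2.22, SD, n = 2), eIF3a peaks 10.0% and 22.2% (16.09% ± 8.57) and eIF3b peaks 11.0% and 13.9% (12.5% ± 2.06). Both METTL16 lists lay below all 4 eIF3 lists. The same order held over all genes with a peak in the list. Their median share of exon bases under peaks was 5.79% and 6.12% for METTL16, 6.38% and 6.74% for eIF3a, and 8.2% and 7.01% for eIF3b. Those are medians per gene, while the reader values pool the bases of the 8 genes. The difference was -9.89 percentage points from eIF3a and -6.27 from eIF3b, each with a two-sided exact permutation p of 0.333, the smallest that 2 lists against 2 allow, and the eIF3 proteins differed by 3.62 (exact p = 1.0). Without eIF3a replicate 2 that last difference was -2.44 and the one between METTL16 and eIF3a -3.83; without eIF3a replicate 1 they were 9.68 and -15.9. The METTL16 lists also held fewer peaks over all genes than the eIF3b lists and eIF3a replicate 1 (13199 and 13136 against 20027 to 21733), though not than eIF3a replicate 2 (12921); the part of list size in this difference was not tested.

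By region, 49.2% and 42.8% of the METTL16 peak bases on reader transcripts lay in the 3′ UTR, against 50.1% and 52.7% for eIF3a and 33.2% and 42.9% for eIF3b. For all genes these shares were 31.1% and 22.6%, 35.7% and 34.1%, and 27.3% and 32.9%, lower than the readers' share in each list. The readers' share rested on IGF2BP1 and IGF2BP2, which held 98.5% of the 3′ UTR bases under peaks in METTL16 replicate 1 and all of them in replicate 2, 72.5% and 99.2% under eIF3a peaks and 95.4% and 92.5% under eIF3b peaks. Over the other 6 genes the 3′ UTR share was 2.67% and 0%, 29.1% and 1.06%, and 4.20% and 7.05%, below that of all genes in each list. The YTH genes had 3′ UTR bases under peaks in the eIF3a lists alone, 359 and 53. The reader exons themselves were 41.6% 3′ UTR and 31.5% coding. Between proteins, the 3′ UTR share differed by -5.43 points for METTL16 minus eIF3a (exact p = 0.333), 7.94 for METTL16 minus eIF3b (exact p = 0.667) and 13.4 for eIF3a minus eIF3b (exact p = 0.333), none of which the design can place past 0.05. The first was -0.302 at an adjusted p of at most 0.001, -61.7 with peaks of at least 4-fold and 8.59 among the 5000 strongest peaks per list. With peaks of at least 4-fold the second was -8.02 and the third 53.7, and at an adjusted p of at most 0.001 the second was 14.9. At 4-fold the METTL16 lists held 4 and 1 reader peaks, the eIF3a lists 2 and 1 and the eIF3b lists 5 and 1. The single peak of eIF3a replicate 2 was that of 4072 bases in the 3′ UTR of IGF2BP1.

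**Figure D5:**
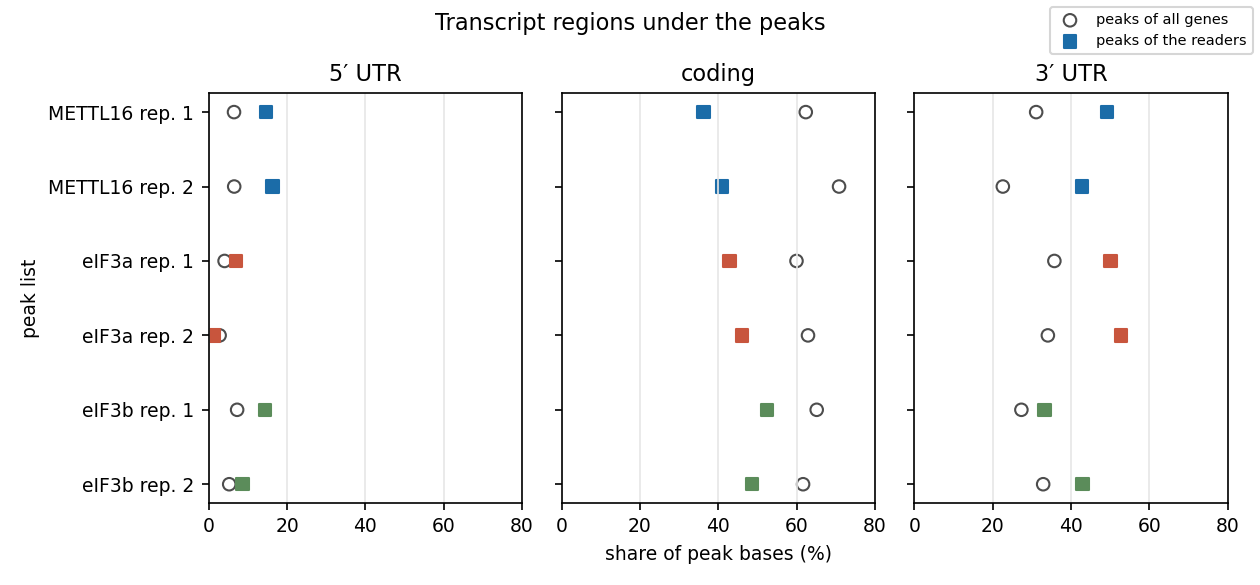
Share of peak bases in the 5′ UTR, coding region and 3′ UTR for the reader genes (squares, coloured by protein) and for all genes (open circles), 1 row per list. The squares lie to the right of the circles in the 3′ UTR panel and to the left in the coding panel in all 6 lists, with at least 72.5% of the readers' 3′ UTR bases in IGF2BP1 and IGF2BP2. In the 5′ UTR panel the squares lie to the right in every list but eIF3a replicate 2.

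Peak positions on these transcripts were next compared between lists by the Jaccard index, the bases shared by a pair of lists over the bases in either. It was 0.348 between the METTL16 replicates, 0.168 between the eIF3a replicates and 0.505 between the eIF3b replicates (0.341 ± 0.169, SD, n = 3), against 0.319 ± 0.148 over the 12 pairs of different proteins. The difference of 0.0214 had a one-sided exact permutation p of 0.333 over 15 pairings. The highest index, 0.593, joined METTL16 replicate 1 and eIF3b replicate 1, and 5 of the 12 pairs of different proteins were at or above the mean of the replicates. Replicates of a protein were therefore not shown to be more alike than different proteins. Leaving out METTL16 replicate 2, eIF3b replicate 1 or eIF3b replicate 2 turned the sign, to -0.0426, -0.0332 and -0.0409. Leaving out METTL16 replicate 1, eIF3a replicate 1 or eIF3a replicate 2 raised the difference, to 0.0634, 0.136 and 0.0459 (exact p = 0.4, 0.0667 and 0.267). Each omission also removes the replicate pair of that protein, and the eIF3a pair had the lowest index of the 3.

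The letters GGAC occurred at 4.97 and 6.35 per kilobase of reader peak in the METTL16 lists, 5.13 and 4.81 in the eIF3a lists and 5.17 and 3.69 in the eIF3b lists. In the remaining exon bases of the same genes, pooled, the density was 3.16 to 3.50, lower in each list. The genes do not weigh equally in the 2 pools. Over all exon bases of a gene, the density ran from 1.76 in YTHDC2, which had a peak in 1 list, to 5.86 in IGF2BP3. The part of this gene mix in the difference was not tested. GGACT, which always contains GGAC, was denser in peaks than outside in 4 of the 6 lists. Motifs were searched on the transcript strand only. Of the reader peaks of a list, 53.8% to 83.3% held GGAC, 7.69% to 44.4% GGACT and 3.85% to 7.69% ACAGAGA. Of all 181-base windows along the 8 canonical transcripts, 43.6%, 12.4% and 2.29% did, but peaks ranged in width, so these shares are not at equal length. ACAGAGA occurred 6 times in the reader exons, with 1 or 2 sites under peaks in each list. The GC content of reader peak bases ranged from 49.1% to 56.2%, and its part in these densities was not tested.

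Other genes of the m6A pathway were read from 2 lists. Of 16 genes for further m6A-binding proteins and their partners, METTL16 bound 10 (42.6% of all genes), eIF3a 12 (42.4%) and eIF3b 12 (60.0%), and 8 had a peak in all 6 lists (25.2%). These were HNRNPA2B1, a nuclear m6A-associated protein, the FMR1 relative FXR1, PRRC2A, the RNA stability factor ELAVL1, MATR3, the poly(A)-binding protein PABPC1, the decay factor UPF1 and the export receptor NXF1. RIDA had none. Of 10 genes for m6A writers and erasers, METTL16 bound 5, eIF3a 6 and eIF3b 9, against the same 42.6%, 42.4% and 60.0% of all genes. RBM15, RBM15B and ZC3H13, of the writer complex, and the demethylase ALKBH5 had a peak in all 6 lists.

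Among liver markers, APOB and APOA1 had peaks in 5 lists, AFP and TF in the METTL16 lists alone and ALB in 1. The fibroblast genes COL1A1 and COL1A2 had none, while the leukocyte gene PTPRC had a peak in METTL16 replicate 1 (14.6-fold). The globin gene HBB had peaks of 576- and 986-fold in the METTL16 lists, 1.47-fold in eIF3a replicate 1 and 1700-fold in eIF3b replicate 1, and none in the other two lists. The part of this signal in the reader peaks was not tested. A peak records enrichment over input, so its absence does not show that a gene was silent.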

How the data were processed

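RNA from 6 RIP and 6 input samples of HepG2 cells was aligned by the authors with STAR to GRCh38 and peaks were called with exomePeak at its default settings; versions, annotation and the pairing of input with RIP are not given in the sources used here. The deposited lists hold, per peak, exon blocks, a p-value, log10 p and log10 adjusted p (taken as a score) and the fold enrichment ratio over input. The largest adjusted p in any list was 0.0501. The deposited files hold no counts, so precision rests on 2 lists per protein, which the methods describe as biological replicates.

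Peaks were matched by gene name, and positions were converted to 1-based. Exon bases were taken from GENCODE release 44 over all transcripts, with regions from the canonical transcript first and the stop codon counted with the 3′ UTR. Of 10830 names, 10325 matched a current symbol, 440 an older symbol and 65 none. No sequence of 50 bases was shared between any of the 28 pairs of reader genes. RefSeq names pseudogenes of YTHDF1 (1), YTHDF2 (1), YTHDF3 (1), IGF2BP2 (3) and IGF2BP3 (2), whose reads the authors' counting may have split.

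Shares and coverage were compared by exact two-sided permutation of 2 lists against 2 (smallest p 0.333), and the Jaccard index by an exact one-sided test over 15 pairings (smallest p 0.0667). Functions were tested on simulated data. Alternatives were a 4-fold minimum, an adjusted p of at most 0.001, the 5000 strongest peaks, assignment by at least 50% exon overlap, a peak in either replicate, the canonical transcript, means over genes, a replicate block and leaving out each list. Named genes were all 8 readers, pathway genes in all lists or none, and the 3 genes nearest the reader of highest median percentile. The 8 readers, picked by name, and the pathway and marker lists were all chosen with earlier results of these data known. Python 3.11.15, numpy 2.4.6 and pandas 2.3.3 were used.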

Additional observations from a re-analysis of the deposited data

How the results depend on the processing

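The 11 results were recomputed to give 102 values. Of these, 87 pointed the same way or, for counts, stayed within 1.5 times, 8 counts moved further and 7 differences changed sign. Part of the 87 could not have come out otherwise. The replicate block leaves the coverage and 3′ UTR differences as they were. Leaving out a list, or taking a peak in either replicate, can only keep or raise a count, and counts of 6 or 7 out of 8 cannot rise past 1.5 times. No test could pass 0.05 under any alternative, because the smallest p that any of them allows is 0.0667. The side of 0.05 was thus fixed in advance and says nothing about stability. With peaks of at least 4-fold, the readers bound by METTL16, eIF3a and eIF3b numbered 1, 0 and 1 (17.9%, 14.3% and 24.8% of all genes), and 0 had a peak in all 6 lists (6.25%); the Jaccard difference became -0.00921 and the 3′ UTR difference of METTL16 minus eIF3b -8.02. With the 5000 strongest peaks per list the counts were 2, 3, 4 and 2 (20.1%, 15.9%, 21.2% and 8.57% of all genes), and the 3′ UTR difference of METTL16 minus eIF3a was 8.59. The causes were not tested. Leaving out each list in turn, the Jaccard difference ranged from -0.0426 to 0.136 and the exon coverage difference of eIF3a minus eIF3b from -2.44 (without eIF3a replicate 2) to 9.68. The other coverage differences ranged from -15.9 to -3.83 (METTL16 minus eIF3a) and -7.84 to -4.70 (METTL16 minus eIF3b), and the 3′ UTR differences from -8.63 to -2.22 (METTL16 minus eIF3a), 3.11 to 12.8 (METTL16 minus eIF3b) and 8.54 to 18.2 (eIF3a minus eIF3b).

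Same-numbered lists were not shown to be paired. Over the 2730 genes present in each list, the deviations in log10 p of same-numbered lists correlated at -0.991 (METTL16 and eIF3a), 0.957 (METTL16 and eIF3b) and -0.950 (eIF3a and eIF3b). After seeing these values, 2 further scales were tried: without the 10 most deviating genes they were 0.062, 0.246 and 0.207, and on ranks 0.091, 0.065 and -0.097. The values differed in sign and size between the 3 scales, so they do not settle whether these lists were paired. With the replicate block the Jaccard difference was 9.86e-05 (exact p = 0.333), and the coverage differences of -9.89, -6.27 and 3.62 and the 3′ UTR differences of -5.43, 7.94 and 13.4 had exact p of 0.5 to 1.0, where 2 pairs allow no p under 0.5.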
